A study of Mus musculus with 8 samples.

Results

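The semaphorins, plexins and neuropilins form a family of guidance ligands and their receptors, and their transcripts were followed in B-1a cells that lacked the nuclear protein PTIP. The members were all genes on the array whose annotated symbol begins with Sema or Plxn (Plxdc genes are not plexins and were not taken), together with Nrp1 and Nrp2. This gave 32 genes of the 22180 named genes tested, read by 34 probe sets, namely 20 semaphorins, 9 plexins, the 2 neuropilins and Plxna4os1, an RNA antisense to Plxna4. For the 2 members with 2 probe sets, Plxna1 and Plxnb1, the brighter on average over the 8 arrays was used.

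B-1a cells are B cells of the body cavities that renew themselves outside the bone marrow. They were sorted from the peritoneal wash of mice of 5 weeks. KO mice were PTIPflox/flox and control mice were PTIP+/+ (WT in the labels). Both groups carried 1 copy of a Cre allele that drives recombination in B lineage cells, and only the KO mice carried floxed copies of Paxip1, the gene for PTIP. The 29 mutant and 22 control mice were combined into 4 pools per genotype, with 1 array each, so the spread given here is between pools and not between single mice. Affymetrix arrays measured the RNA, and all levels below are log2 values from the authors' RMA normalization. A difference of 1 on this scale is a doubling.

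Semaphorins are secreted or membrane-bound ligands that share the sema domain. Plexins are their main signalling receptors, with a cytoplasmic part that acts as a GTPase-activating protein on small Ras-family GTPases and reorganises actin and integrin adhesion. Neuropilins have short cytoplasmic tails and act as co-receptors: Nrp1 and Nrp2 bind the secreted class 3 semaphorins and pass the signal through A-type plexins, and both also bind vascular endothelial growth factors. In lymphocytes the best known member is Sema4d (CD100), first described on T cells and also made by B cells.

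The targeted gene was checked first. Paxip1 read 4.66, 4.48, 4.79 and 3.58 in the 4 KO pools, against 6.87, 7.13, 7.16 and 7.03 in the 4 control pools. All KO pools lay below all control pools (difference -2.67, SE 0.22, limma adjusted p = 9.96e-05). The 7 measured B cell markers averaged 10.6 to 10.8 in KO pools and 10.6 to 10.8 in control pools, and limma called 0 of them (0 also at an unadjusted p under 0.05). Cd5, Spn, Bhlhe41, Itgam and Zbtb32, markers of B-1a cells, were all measured. Their mean was lower in KO, at 7.09 to 7.33 against 7.81 to 7.95 in control. Itgam and Zbtb32 fell (differences -1.68 and -1.11). Spn (-0.52) was not called, and Cd5 (0.04) and Bhlhe41 (-0.02) were nearly level. The 14 measured T cell markers averaged 7.27, 7.07, 5.28 and 5.82 in KO pools 1 to 4, against 5.54, 5.64, 4.89 and 4.67 in control pools 1 to 4. KO pools 1 and 2 therefore stood apart in T cell transcripts, and results are given below with and without them. KO pool 4 (5.82) was also above every control pool, and KO pool 3 (5.28) lay within the control range. Leaving out KO pools 1 and 2 therefore need not level the T cell transcripts between the groups. The 11 NK cell markers averaged 4.52 to 5.77 in KO and 3.74 to 4.60 in control, and were likewise highest in KO pools 1 and 2; limma called 2 of the 11, Klrb1c and Klrd1, both higher in KO. At an unadjusted p under 0.05 there were 7 of the 11 NK cell markers. Of the T cell markers limma called 0 of 14 (10 at an unadjusted p under 0.05). Over all 22180 genes, 3.59% were called and 15.3% had an unadjusted p under 0.05. Of 5 plasma cell markers 1 was called, Jchain, the joining chain of secreted antibodies, which rose by 1.49. The other plasma cell markers were split, with differences of 0.19 for Prdm1, 0.01 for Sdc1, -0.35 for Xbp1 and -0.34 for Irf4. Macrophage markers averaged 4.82 to 5.08 in KO and 4.69 to 5.63 in control, with 1 of 12 called, Cd68, which fell by 0.56. Of these 12, 6 had positive and 6 negative differences. At an unadjusted p under 0.05 there were 3 of them, Cd68, Adgre1 (difference -0.76) and Marco (0.33). Control pool 1 held the highest macrophage mean (5.63, against 4.69 to 5.06 in the other control pools) and the highest mean of 7 mast cell markers (4.26, against 3.03 to 3.29); leaving it out ended none of the 4 calls in the family given below. Of 6 mesothelial markers 1 was called, Krt18, a keratin, which fell by 1.08. The other 5 mesothelial markers had positive differences, up to 0.28 for Lrrn4. In a sorted bulk sample, fewer cells of a type and less RNA per cell cannot be told apart.

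In PTIP-deficient B-1a cells 3 receptor genes of the family were lower and 1 ligand gene was higher. Nrp2 fell 5.40-fold, the plexins Plxnc1 and Plxna3 fell 1.82-fold and 1.62-fold, and Sema4d rose 1.35-fold. The calls of Nrp2 and Plxnc1 held in all 20 alternative settings given below, and those of Plxna3 and Sema4d in only 11 of 20 each. These 4 of 32 genes passed an adjusted p under 0.05 in limma over all genes, which is 12.5% of the family; 3.59% of all 22180 genes passed. The falls were 3 of 32 (2.10% of all genes fell) and the rise was 1 of 32 (1.49% of all genes rose). The KO pools did not overlap the control pools in these 4 members and overlapped them in the other 28; 10.5% of all genes did not overlap. At an unadjusted p under 0.05 there were 7 of 32 members, against 15.3% of all genes. The median difference of the 32 members was 0.03 and that of all genes 0.02. Of the semaphorins 13 had positive and 7 negative differences, with a median of 0.07. Of the plexins 2 had positive and 7 negative differences, with a median of -0.17. Over all genes 12100 differences were positive and 10080 negative. The plexin count takes Plxna1 by its brighter probe set, which was negative while its second was positive.

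**Figure D1:**
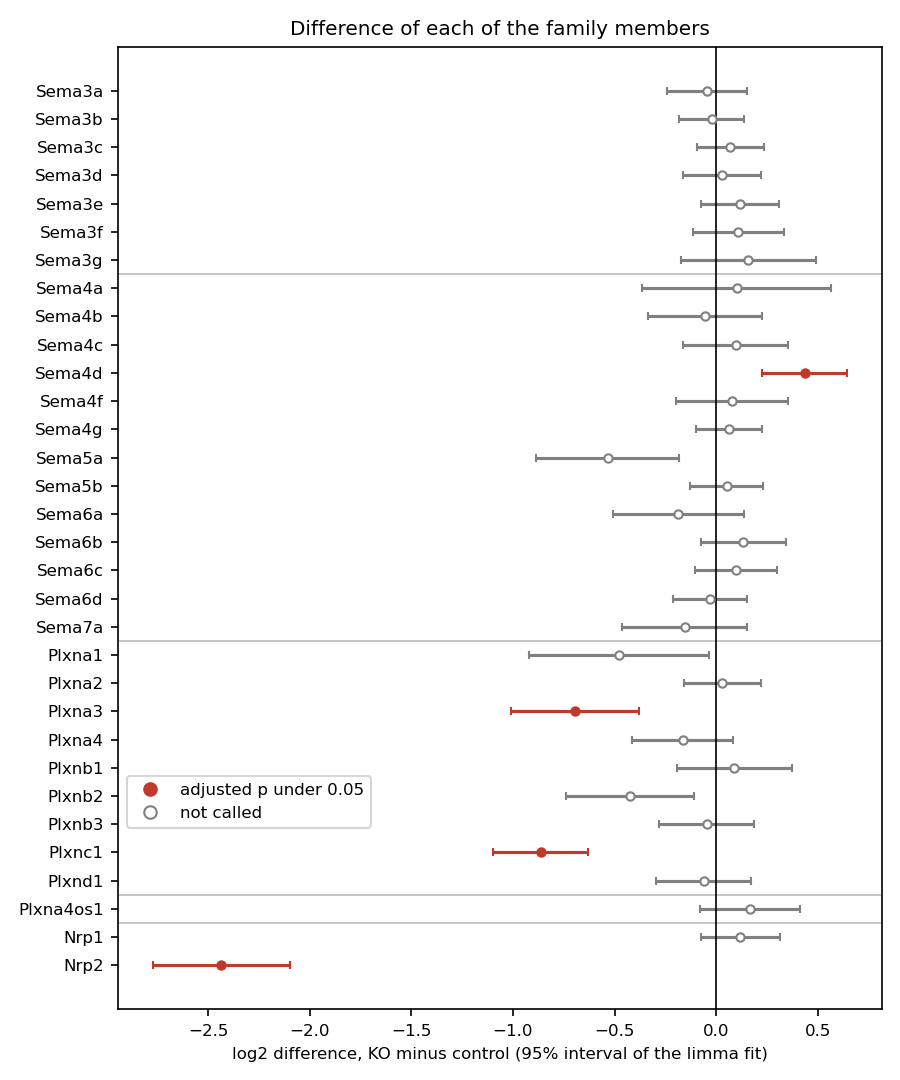
Log2 difference, KO minus control, of each of the 32 family members (points) with its 95% interval from the limma fit (bars), grouped from top to bottom as secreted semaphorins, membrane semaphorins, plexins, the antisense RNA and neuropilins. Filled red points passed an adjusted p under 0.05; Nrp2 at -2.43 lies far left of every other member.

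Nrp2, the co-receptor for Sema3f and for the lymphatic growth factor Vegfc, changed most. Nrp2 read 4.04, 3.98, 3.49 and 3.32 in KO pools 1 to 4, against 6.08, 6.12, 6.27 and 6.09 in control pools 1 to 4. The control pools were tightly grouped, and all KO pools lay far below them. The means were 3.71 ± 0.36 in KO and 6.14 ± 0.09 in control (SD, n = 4 pools each), a difference of -2.43 (SE 0.15, limma adjusted p = 1.91e-05). Only 3 of all 22180 genes had a more negative difference, Paxip1 among them. The exact two-sided permutation test gave p = 0.0286, the smallest that 4 against 4 allows. Within KO, Nrp2 was higher in pools 1 and 2, the pools rich in T cell transcripts; without them the difference was -2.74, and adjusted for the T cell marker mean also -2.74. Adjusted for the macrophage marker mean it was -2.42. The KO values lie close to the median of all gene means, 3.81, and whether they are above background is not known from these values, so the 5.40-fold may be a lower limit.

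Nrp1, the other neuropilin and a marker of regulatory T cells and plasmacytoid dendritic cells, was not called. Nrp1 read 2.84, 2.87, 2.87 and 3.10 in KO, against 2.74, 2.72, 2.87 and 2.86 in control. The groups overlapped and all pools were dim (difference 0.12, SE 0.09, limma adjusted p = 0.594; 95% interval -0.08 to 0.31). The gap between both genes, the Nrp2 value minus the Nrp1 value on each array, was 0.79 ± 0.46 in KO and 3.34 ± 0.08 in control (SD, n = 4 each), a difference of -2.55. Since every Nrp1 value lay below the median of gene means, a fall of Nrp1 might not have been measurable, and whether the neuropilins changed differently is not settled by this gap.

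The promoter of Nrp2 is printed here with those of the other 3 called members, because these are the genes whose RNA differed. The sequences are from RefSeq, build GRCm38.p6, and run from 250 bases before to 50 bases after the listed start, 5′ to 3′ on the gene's strand. Nrp2 lies at chr1:62703067-62703366 on the plus strand, Plxnc1 at chr10:94944796-94945095 on the minus strand, Plxna3 at chrX:74328816-74329115 on the plus strand, and Sema4d, the most upstream of 3 listed starts, at chr13:51756634-51756933 on the minus strand. Capitals mark GC boxes (GGGCGG) on either strand, with overlapping matches counted.
Nrp2: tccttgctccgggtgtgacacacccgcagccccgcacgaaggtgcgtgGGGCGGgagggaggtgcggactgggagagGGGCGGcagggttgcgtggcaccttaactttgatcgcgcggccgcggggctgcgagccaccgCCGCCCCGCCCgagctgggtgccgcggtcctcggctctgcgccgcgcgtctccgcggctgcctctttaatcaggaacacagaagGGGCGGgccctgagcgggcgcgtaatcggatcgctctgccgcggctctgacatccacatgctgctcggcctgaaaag
Plxnc1: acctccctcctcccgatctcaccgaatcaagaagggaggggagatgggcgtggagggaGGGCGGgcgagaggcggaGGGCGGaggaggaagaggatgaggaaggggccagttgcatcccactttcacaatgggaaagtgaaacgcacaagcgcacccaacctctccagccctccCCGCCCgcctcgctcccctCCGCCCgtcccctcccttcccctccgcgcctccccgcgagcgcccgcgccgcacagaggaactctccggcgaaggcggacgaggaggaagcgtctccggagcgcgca
Plxna3: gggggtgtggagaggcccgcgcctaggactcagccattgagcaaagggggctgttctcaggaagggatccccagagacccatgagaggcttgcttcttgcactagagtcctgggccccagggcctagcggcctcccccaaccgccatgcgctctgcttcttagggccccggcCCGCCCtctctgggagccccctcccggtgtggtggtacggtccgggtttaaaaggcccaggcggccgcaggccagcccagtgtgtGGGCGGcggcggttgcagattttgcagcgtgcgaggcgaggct
Sema4d: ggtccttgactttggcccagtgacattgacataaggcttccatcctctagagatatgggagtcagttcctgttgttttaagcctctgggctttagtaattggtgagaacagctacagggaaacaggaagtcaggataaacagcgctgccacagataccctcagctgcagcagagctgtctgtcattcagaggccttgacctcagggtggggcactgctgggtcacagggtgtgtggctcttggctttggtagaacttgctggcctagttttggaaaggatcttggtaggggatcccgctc

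The windows of the 3 genes that fell hold more CG dinucleotides than the printed Sema4d window, and they hold GC boxes, which it does not. Nrp2 holds 37 CG dinucleotides and 5 GC boxes, Plxnc1 holds 30 and 4, Plxna3 holds 18 and 2, and the printed Sema4d window holds 2 and 0. The windows of the other 2 Sema4d starts hold 3 CG dinucleotides each, and 1 of them has a GC box. Over all 32851 windows in the table the median is 7 CG dinucleotides and the upper quartile 20, and 35.7% hold a GC box. The median of the members' windows is 15 CG dinucleotides, and members that were not called reach as high, with 42 in Sema3c. Among members, 26 of 32 have a listed promoter, and 27 of their 37 windows hold a GC box, so this feature is common among members that were not called. The TATA box TATAAA, the ETS factor motif CCGGAAG, the E-box CACGTG and the cyclic AMP response element TGACGTCA were also searched, on both strands, and occur in none of the 4 printed windows (in 13.6%, 8.86%, 7.15% and 1.79% of all windows). These matches describe letters and are not evidence of binding.

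Among the plexins, Plxnc1 and Plxna3 fell. Plxnc1 is the receptor of Sema7a and of viral semaphorin mimics. It read 7.33, 7.34, 7.10 and 7.13 in KO pools, against 8.18, 7.95, 7.94 and 8.29 in control pools. The pools were tight in both groups and did not overlap (7.23 ± 0.13 in KO and 8.09 ± 0.17 in control, SD, n = 4 each; difference -0.86, SE 0.11, limma adjusted p = 0.00133). Without KO pools 1 and 2 the difference was -0.98, adjusted for the T cell marker mean -0.96, and adjusted for the macrophage marker mean -0.86.

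Plxna3, an A-type plexin that signals for Sema3f in complex with Nrp2, was dimmer. Plxna3 read 4.09, 3.89, 3.70 and 4.17 in KO pools, against 4.42, 4.68, 5.02 and 4.50 in control pools. The highest KO pool was still below the lowest control pool (3.96 ± 0.21 in KO and 4.65 ± 0.27 in control, SD, n = 4 each; difference -0.69, SE 0.14, limma adjusted p = 0.0239). Leaving out KO pool 2, KO pool 3, control pool 2 or control pool 3 ended the call; limma adjusted p then ran from 0.0517 to 0.0707 and the difference from -0.69 to -0.57. It was also lost without KO pools 1 and 2 (difference -0.72, limma adjusted p = 0.131) and when adjusted for the T cell marker mean (-0.74, limma adjusted p = 0.131).

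Of the other plexins, 2 differed at an unadjusted p under 0.05 without passing the adjustment. Plxnb2, a receptor for class 4 semaphorins that regulates cell migration, read 4.93, 4.74, 4.79 and 5.21 in KO, against 5.20, 5.10, 5.36 and 5.70 in control. KO pool 4 reached into the control range (difference -0.42, SE 0.14, limma adjusted p = 0.163; -0.26 when adjusted for the T cell marker mean). Plxna1, the A-type plexin that pairs with either neuropilin, read 4.34, 3.80, 3.98 and 4.02 in KO, against 4.54, 4.08, 4.30 and 5.14 in control. Its groups overlapped, control pool 4 was the highest of all, and the difference was -0.48 (SE 0.20, limma adjusted p = 0.281), or -0.27 without control pool 4. A second Plxna1 probe set differed in the opposite direction, at 3.96 ± 0.05 in KO and 3.78 ± 0.15 in control (difference 0.18, SE 0.09, limma adjusted p over all probe sets = 0.459), so no direction is given for this gene.

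The remaining 5 plexins showed no difference that passed. Plxnd1, a receptor for Sema3e and Sema4a, was at 3.94 ± 0.18 in KO and 4.00 ± 0.12 in control (difference -0.06). Plxna2, Plxna4, Plxnb1 and Plxnb3 were all dim; their differences were 0.03, -0.17, 0.09 and -0.05. Both Plxnb1 probe sets had small differences (0.09 and 0.03). Plxna4os1 differed by 0.17 (limma adjusted p = 0.553).

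**Figure D2:**
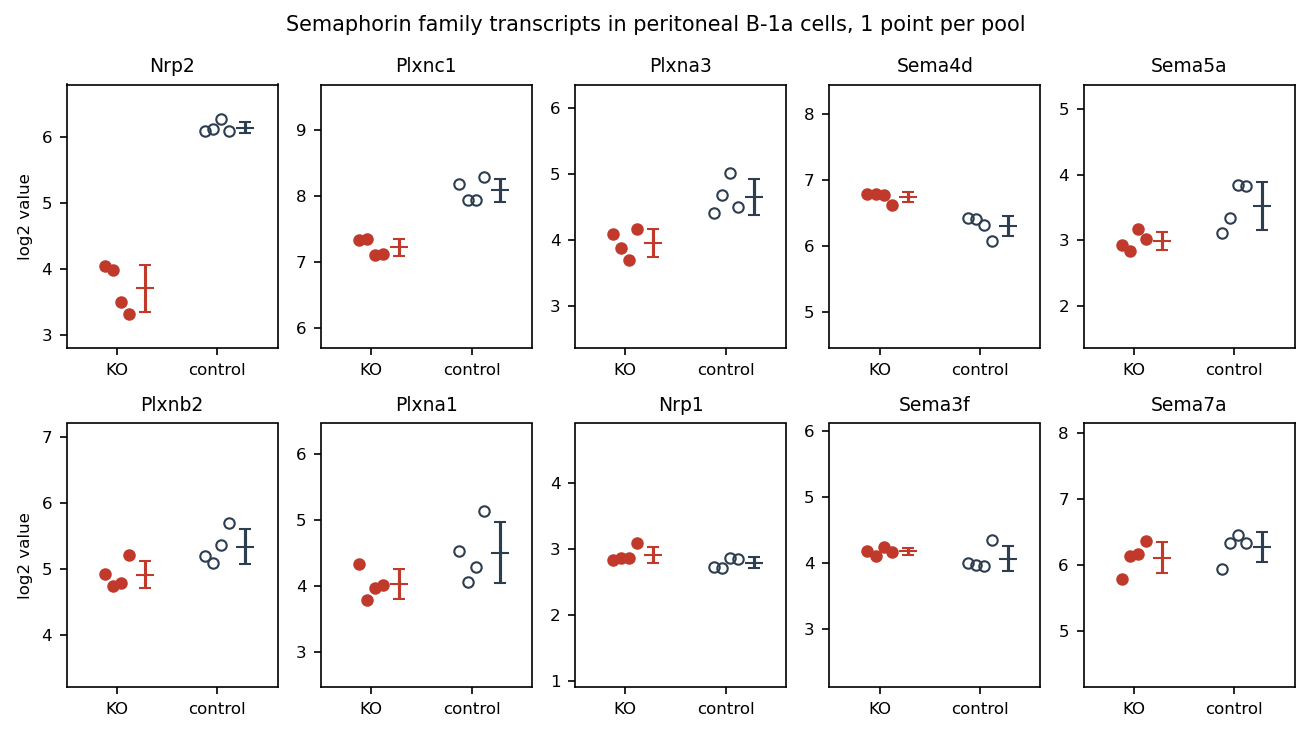
Log2 values of 10 members, 1 point per pool, with KO in filled red left of control in open dark circles; the horizontal mark and bar beside each group are its mean and SD (n = 4 pools). Each panel spans the same 4 log2 units. Nrp2, Plxnc1, Plxna3 and Sema4d have groups that do not overlap, and the other 6 overlap.

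On the ligand side, Sema4d was the 1 semaphorin of 20 that passed the test. Sema4d is a membrane ligand shed by proteases, whose receptors are Plxnb1, Plxnb2 and, on B cells, the inhibitory lectin CD72. It read 6.79, 6.79, 6.77 and 6.63 in KO pools, against 6.42, 6.41, 6.32 and 6.09 in control pools. All KO pools were above all control pools (6.75 ± 0.08 in KO and 6.31 ± 0.16 in control, SD, n = 4 each; difference 0.43, SE 0.10, limma adjusted p = 0.0309). T cells also express Sema4d, and 13 of 14 T cell markers had positive differences, as did 11 of 11 NK cell markers. Of 5 plasma cell markers 3 had positive differences, Jchain among them, and 2 negative. In control, pools 1 and 2 were above pools 3 and 4 both in Sema4d and in the T cell marker mean. The control T cell marker means were 5.54, 5.64, 4.89 and 4.67 in pools 1 to 4. In KO, pools 1 and 2 were also highest in both (T cell marker means 7.27 and 7.07). KO pool 3, with the lowest T cell marker mean in KO (5.28), read Sema4d at 6.77, above KO pool 4 (5.82 and 6.63). The part of T, NK and plasma cells in the result was not tested. Adjusted for the T cell marker mean, the difference was 0.33 (limma adjusted p = 0.283), and without KO pools 1 and 2 it was 0.39 (limma adjusted p = 0.211). The call was also lost when KO pool 1, 2 or 3 or control pool 3 or 4 was left out (limma adjusted p from 0.0630 to 0.0856, difference from 0.36 to 0.44).

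The semaphorins known to act on the called receptors showed no difference that passed. Sema7a, the lipid-anchored ligand of Plxnc1 and of integrin beta 1, read 5.80, 6.14, 6.17 and 6.36 in KO, against 5.95, 6.35, 6.46 and 6.35 in control (difference -0.16, 95% interval -0.46 to 0.15). Sema3f, the preferred secreted ligand of Nrp2, read 4.18, 4.10, 4.24 and 4.16 in KO, against 3.99, 3.96, 3.95 and 4.35 in control. KO was above 3 of the control pools and below control pool 4 (difference 0.11, 95% interval -0.12 to 0.33). Sema5b, which acts on A-type plexins in the mouse retina, read 4.21, 4.01, 3.98 and 4.04 in KO, against 4.01, 4.00, 4.06 and 3.97 in control (difference 0.05, 95% interval -0.13 to 0.23). Its relative Sema5a had the largest negative difference of the semaphorins without a call. Sema5a read 2.94, 2.84, 3.17 and 3.02 in KO, against 3.11, 3.34, 3.84 and 3.82 in control, with KO pool 3 above control pool 1 (difference -0.53, SE 0.16, limma adjusted p = 0.112). It was called when control pool 1 was left out (limma adjusted p = 0.0357), and adjusted for the T cell marker mean the difference was -0.25 (limma adjusted p = 0.627).

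Other class 4 semaphorins made by lymphocytes did not pass the test. Sema4b, a membrane semaphorin, was at 7.66 ± 0.17 in KO and 7.71 ± 0.23 in control, with a difference of -0.06 (95% interval -0.33 to 0.22). Sema4a, a co-stimulatory ligand of T cells, read 5.83, 5.55, 4.84 and 5.19 in KO, against 4.90, 5.70, 5.20 and 5.21 in control. KO pools 1 and 2 were the highest of their group, as for the T cell markers (difference 0.10, 95% interval -0.37 to 0.57). Among the control pools, pool 2 was highest both in Sema4a and in the T cell marker mean (5.64). Control pool 1 was lowest in Sema4a, with a T cell marker mean (5.54) above those of control pools 3 and 4 (4.89 and 4.67). The part of T cells in the Sema4a values was not tested. The 18 members that were dim, not called and not named with their pools as partners or near-calls lay between 2.34 and 4.02 in KO and between 2.25 and 3.78 in control. Their differences ran from -0.19 for Sema6a to 0.16 for Sema3g, 12 positive and 6 negative. They include 6 of the 7 secreted semaphorins and all 4 class 6 semaphorins. RMA makes no call of presence, so a dim value does not show that a gene is silent.

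The protein-coding genes beside the called members on the chromosome were read as a local comparison. These were Pard3b and Ino80d beside Nrp2, Cep83 and Cradd beside Plxnc1, Fam50a and Lage3 beside Plxna3, and Secisbp2 and Gadd45g beside Sema4d. None of the 8 was called (limma), and 3.59% of all genes were. Secisbp2 was the 1 of 8 at an unadjusted p under 0.05, against 15.3% of all genes. With so few genes these counts cannot show whether neighbours differ from other genes. The differences of the 8 ran from -0.29 to 0.11.

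Genes that work with the family were taken from a list of 70 symbols, of which 63 were measured. In this list 2 rose and 3 fell (5 of 63, or 7.94%; 3.59% of all genes passed), with a median difference of 0.04. Among the other ligands of neuropilins, Vegfa, which binds Nrp1 and Nrp2, read 4.03, 4.19, 4.11 and 3.76 in KO, against 4.49, 4.69, 4.65 and 4.68 in control (difference -0.60, SE 0.10, limma adjusted p = 0.00909). Tgfb1, which neuropilins can bind and which was written into the list for that, read 9.11, 9.05, 9.19 and 9.28 in KO, against 8.66, 8.78, 8.80 and 8.69 in control (difference 0.43, SE 0.08, limma adjusted p = 0.0170). The groups overlapped for neither gene. None of the 4 proteases that shed semaphorins (Furin, Adam10, Adam17 and Mmp14) was called (limma; 1, Adam10, at an unadjusted p under 0.05).

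Of 16 other receptors, only Itgb1, the integrin chain through which Sema7a signals, was called. It read 9.14, 9.11, 8.83 and 8.90 in KO, against 9.27, 9.67, 9.66 and 9.76 in control, without overlap (difference -0.60, SE 0.12, limma adjusted p = 0.0205). The Itgb1 call was lost when KO pool 4 or control pool 2, 3 or 4 was left out (limma adjusted p from 0.0608 to 0.0659). Met, the receptor of hepatocyte growth factor and a partner of plexins, missed the threshold (difference -0.44, limma adjusted p = 0.0517) and was called in 5 of the 20 alternatives. Among 37 cytoplasmic effectors, Rras2, a Ras-family GTPase, rose and Mical3, a member of the MICAL flavoenzymes that oxidise actin, fell. Rras2 read 7.74, 7.66, 7.39 and 7.65 in KO, against 6.96, 7.00, 6.60 and 6.68 in control (difference 0.80, SE 0.12, limma adjusted p = 0.00334). Mical3 read 5.90, 5.95, 5.90 and 5.96 in KO, against 6.44, 6.27, 6.28 and 6.32 in control (difference -0.40, SE 0.08, limma adjusted p = 0.0154). The groups did not overlap for either gene. Adjusted for the T cell marker mean, none of these 5 calls held (limma adjusted p from 0.0601 for Rras2 to 0.120 for Mical3). The differences were then -0.68 for Itgb1, -0.65 for Vegfa, 0.50 for Tgfb1 and -0.41 for Mical3, none smaller in size than without the adjustment, and 0.58 for Rras2, which was smaller. Without KO pools 1 and 2 only the call of Vegfa held (-0.69, limma adjusted p = 0.0384), with differences of -0.73 for Itgb1, 0.50 for Tgfb1, -0.40 for Mical3 and 0.71 for Rras2. The Tgfb1 call was also lost without control pool 4 (limma adjusted p = 0.0555).

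**Figure D3:**
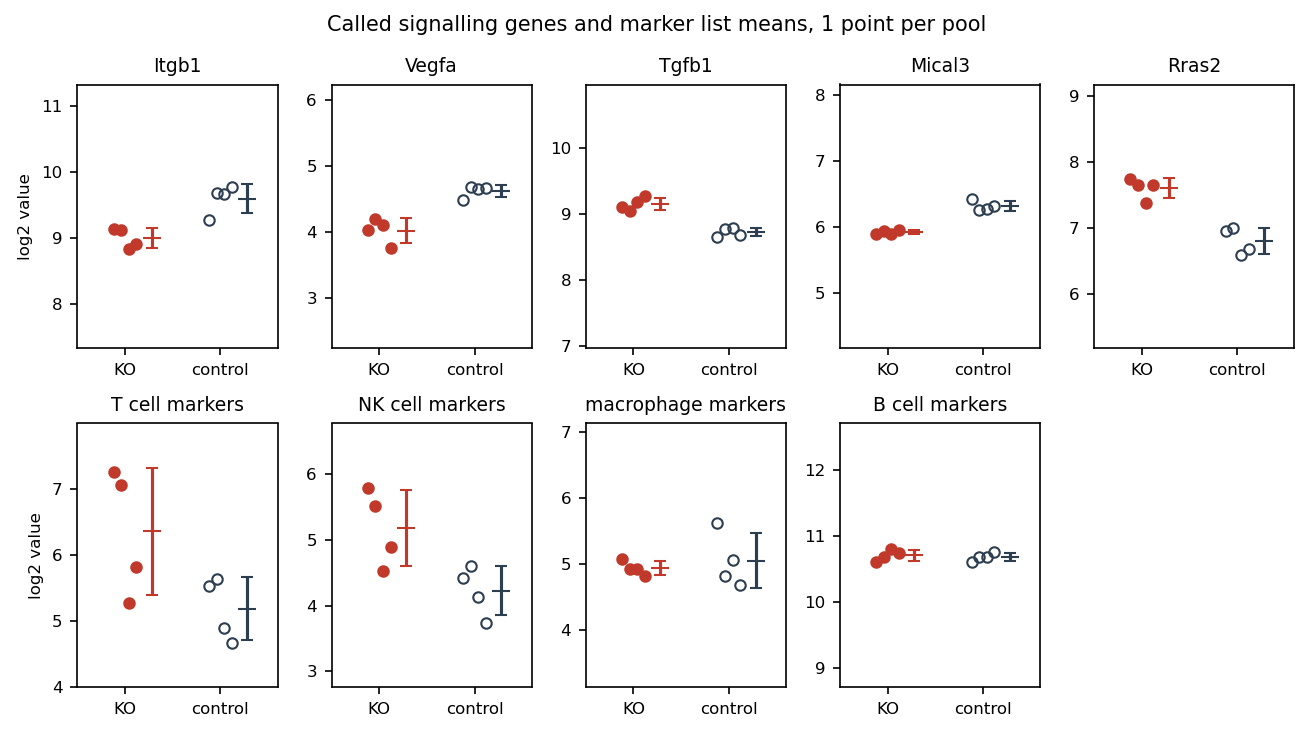
Log2 values of the 5 called signalling genes (top) and the means of 4 marker lists (bottom), 1 point per pool, KO in filled red left of control in open dark circles, with mean and SD (n = 4 pools). Each panel spans 4 log2 units. T cell and NK cell markers spread widely and are highest in KO pools 1 and 2, while B cell markers are nearly level.

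The falls of Nrp2 and Plxnc1 passed in all 20 alternative settings that were run, with differences from -2.74 to -2.30 and from -0.98 to -0.80. The fall of Plxna3 and the rise of Sema4d each passed in 11 of 20, with no change of direction, from -0.77 to -0.57 and from 0.33 to 0.48.

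**Figure D4:**
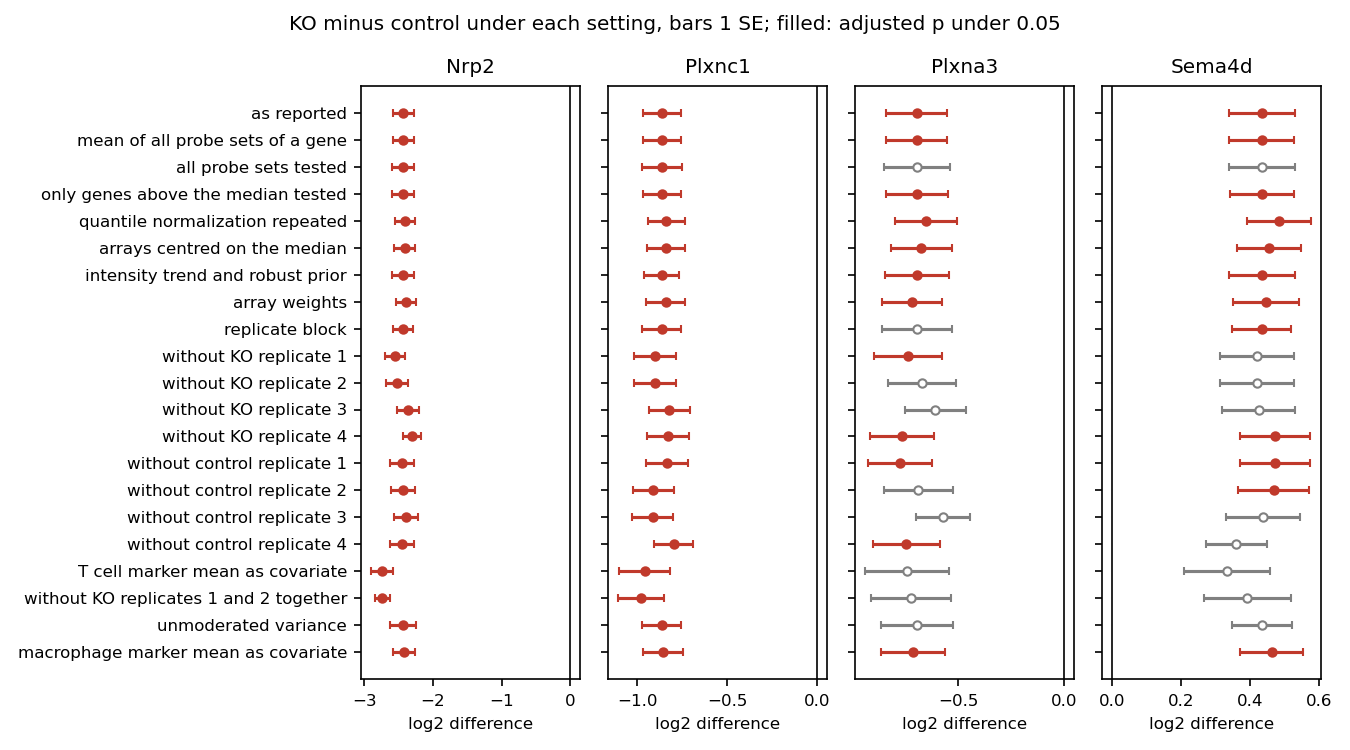
Log2 difference, KO minus control, of the 4 called members (panels, each with its own scale) in the fit as reported and in 20 alternatives (vertical axis), with bars of 1 SE. Filled red points passed an adjusted p under 0.05. All points of Nrp2 and Plxnc1 are filled, and 9 alternatives each leave Plxna3 and Sema4d unfilled without crossing 0.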

How the data were processed

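RNA of 8 pools was measured on arrays. The deposited table holds log2 values that the authors made with RMA and R 3.2.2, per the submitters' processing notes; values run from 1.37 to 13.8 over 41345 probe sets. Quantile normalization removes differences in total RNA. The probe annotation gives 1 symbol to 23521 probe sets and several to 1814, which were not named; 16010 are not listed. Names were updated through RefSeq (23328 matched), leaving 22180 genes.

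KO was compared with control using limma 3.58.1 in R 4.3.3 (lmFit, eBayes, two-sided, Benjamini-Hochberg over all genes, adjusted p under 0.05). Called means past that threshold. Simulated data with known changes were used to test the fit. Arrays give no read depth; their number limits precision. The members, lists and alternatives were chosen with earlier results of these data known. Members called, those with an unadjusted p under 0.05 and partners above the median gene mean (3.81) are given pool by pool, and signalling genes where called; other members are named after their values were seen. Of the 70 signalling symbols, Figf is an older name of Vegfd, which is also listed and was measured; 6 others, Cd72 among them, are not analysed here. Alternatives changed probe set choice, genes tested, scaling, variance prior, weights, block, covariates and pools.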

Additional observations from a re-analysis of the deposited data

Results flagged for a closer look

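In 6 of 74 groups of 4 pools examined (the members and the called signalling genes), 1 pool stood far from the other 3; chance alone flags about 1 in 20 groups. In KO pool 4, Sema4d was low at 6.63 (the others 6.77 to 6.79), Sema4f low at 2.67 (3.13 to 3.16) and Nrp1 high at 3.10 (2.84 to 2.87). In control pool 4, Sema3f was high at 4.35 (the others 3.95 to 3.99) and Plxna2 high at 2.91 (2.64 to 2.67). In control pool 2, Plxna4os1 was low at 3.46 (3.86 to 3.93). Without KO pool 4 the difference of Sema4d was 0.47 (limma adjusted p = 0.0420).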

How the results depend on the processing

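The count of family genes higher in KO (1) was 0 when all probe sets were tested, when adjusted for the T cell marker mean, without KO pools 1 and 2 together, and with unmoderated variance (limma; 1, 2, 1 and 1 rises at an unadjusted p under 0.05), and ran from 0 to 1 when 1 pool was left out. The count of falls (3) stayed between 2 and 4. The signalling count (5) was 3 with the replicate number as a block, 0 when adjusted for the T cell marker mean (12 at an unadjusted p under 0.05), 1 without KO pools 1 and 2 and 2 with unmoderated variance, and ran from 3 (without control pool 4) to 5 with 1 pool left out; it was 7 with the intensity trend and robust prior (Met and Tyrobp added) and 6 with quantile normalization repeated or array weights (Met added). All genes called (797) numbered 403 adjusted over all probe sets, 287 with the T cell covariate, 320 without KO pools 1 and 2, 303 unmoderated, and 479 to 758 with 1 pool left out, against 1006 with the intensity trend and robust prior and 1017 when genes above the median alone were tested. The gap of Nrp2 over dim Nrp1, KO minus control, was -2.92 without KO pools 1 and 2 (exact permutation p = 0.0667, the smallest that 2 against 4 allows) and -2.55 paired by replicate number (exact sign-flip p = 0.125, the smallest that 4 pairs allow). With the T cell covariate Sema5b changed sign to -0.014 and Sema7a to 0.061, neither called; the cause was not tested. Same-numbered pools shared only a number: their deviations correlated at 0.04 to 0.11, and 2 of 4 KO pools correlated best with their own number; the replicate block ended the calls of Plxna3 (adjusted p = 0.0705), Itgb1 and Mical3. The macrophage covariate was chosen after seeing the data. Dim members near the array floor limit what can be seen.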
